A study of Homo sapiens with 4 samples.

Results

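The 84 genes described here are the H/ACA small nucleolar RNA genes (73 with a SNORA symbol) and small Cajal body RNA genes (11 with a SCARNA symbol) that had a mean sense-strand count of at least 10 reads over the 4 libraries. They were chosen from 452 sense entries with such a symbol among 57428 sense genes, and 223 of the 452 were at 0 in every library. The choice used the unscaled count over both groups, so the levels of these genes are given as a description. It was not independent of the contrast between groups. Isotonic replicate 1 was the deepest library, with an effective size of 40775477. The hypertonic libraries were at 23676505 and 25449240 and isotonic replicate 2 at 19378198. Genes near the minimum could therefore pass through high counts in isotonic replicate 1, which favours lower hypertonic values. The size of this effect was not tested. At the edge of the threshold, copies of SNORA62 and SCARNA18 with mean counts of 9.97 and 9.96 and SNORA9 with 9.95 fell outside, and SCARNA16, a SNORA73 copy and another SCARNA18 copy with 10.2, 10.3 and 10.3 fell inside.

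Both groups were U2OS, an osteosarcoma line of human origin, made to express a GFP fusion of the decapping cofactor DCP1a in excess and held under G418 selection. One group was in hypertonic medium with 300 mM sodium and the other in isotonic medium with 150 mM sodium, with 2 libraries each. The cells took up 2 mM bromouridine, a uridine analogue, for 30 min with a chase of 0 h, and RNA holding it was pulled down with an antibody (Bru-seq), so the reads come from newly made RNA and the comparison asks how hypertonic medium changed nascent transcripts. The labels give neither the length of exposure to hypertonic medium nor whether replicates came from separate cultures, so p-values measure only the spread among these samples, possibly a technical one.

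H/ACA snoRNAs fold into a pair of hairpins separated by the H box and followed by an ACA trinucleotide close to the 3′ end, and they guide the pseudouridine synthase DKC1 to uridines of ribosomal RNA. Small Cajal body RNAs guide the modification of spliceosomal snRNAs. They can carry H/ACA boxes, C/D boxes or both in one molecule, so not all of them are H/ACA guides. In human cells most of these RNAs lie in introns of host genes, are spliced out with the intron and are trimmed to their ends, so new host transcripts contain them. A read on such a gene in nascent RNA can therefore come from the unspliced host transcript, the excised intron or the trimmed RNA, and the counts do not tell these apart.

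Of the 84 members, 82 lay on the same strand within a host gene of GENCODE release 29, in 62 distinct hosts. Protein-coding hosts held 65 members, 16 of them in ribosomal protein genes, and noncoding hosts held 17. By the annotation, 47 members lay wholly in introns and 35 overlapped an exon of at least one host transcript. More than 1 member lay in each of 12 hosts: 32 members shared a host, with 6 in TAF1D, 4 in EIF4A2 and 4 in SNHG17. The host is counted without these bases: in each of the 59 hosts whose deposited entry encloses its members, the counted length leaves out at least as many bases as its members hold. The deposited entries of the other 3 hosts, TAF1D, SNHG4 and AC016876.2, do not reach their members.

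The sequences below are the members on which the results turn, read from GENCODE release 29 transcripts on GRCh38, 5′ to 3′ on the strand of the gene. Capitals mark the match to the H box pattern, ANANNA, nearest the middle, and an ACA within the last 7 bases. A marked match need not be the H box itself. In SNORA71C it starts at base 71 and in SNORA71D at base 58, and SNORA71C has another, unmarked match (agagga) at base 58. SNORA73B is shown because it had the highest level, SNORA44 and SNORA61 because they had the largest positive fold changes, SNORA4 and the pair of SNORA63 genes because they lie in EIF4A2 with a wide gap between the hypertonic libraries, SNORA66 as a low member in a ribosomal protein gene, SNORA71C and SNORA71D as relatives in SNHG17, and SCARNA13 as a low scaRNA.
SNORA73B (chr1:28508559-28508762, plus strand, intron of SNHG3): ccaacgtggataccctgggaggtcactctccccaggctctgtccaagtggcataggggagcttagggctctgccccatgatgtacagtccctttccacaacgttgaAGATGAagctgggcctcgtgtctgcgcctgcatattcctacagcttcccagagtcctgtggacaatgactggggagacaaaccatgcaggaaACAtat
SNORA44 (chr1:28580381-28580512, minus strand, in SNHG12): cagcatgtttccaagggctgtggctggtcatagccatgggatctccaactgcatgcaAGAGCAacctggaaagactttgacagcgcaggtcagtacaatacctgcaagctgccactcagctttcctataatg
SNORA61 (chr1:28579764-28579893, minus strand, in SNHG12): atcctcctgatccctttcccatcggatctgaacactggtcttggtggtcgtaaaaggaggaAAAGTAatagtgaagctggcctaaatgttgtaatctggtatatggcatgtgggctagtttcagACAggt
SNORA4 (chr3:186787612-186787749, plus strand, in EIF4A2): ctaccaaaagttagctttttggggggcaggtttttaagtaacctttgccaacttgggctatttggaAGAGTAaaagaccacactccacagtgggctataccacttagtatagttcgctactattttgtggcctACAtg
SNORA63, ENSG00000200418 (chr3:186786323-186786445, plus strand, in EIF4A2): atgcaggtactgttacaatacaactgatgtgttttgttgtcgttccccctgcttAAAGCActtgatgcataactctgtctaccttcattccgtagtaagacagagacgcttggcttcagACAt
SNORA63, ENSG00000200320 (chr3:186787300-186787431, plus strand, in EIF4A2): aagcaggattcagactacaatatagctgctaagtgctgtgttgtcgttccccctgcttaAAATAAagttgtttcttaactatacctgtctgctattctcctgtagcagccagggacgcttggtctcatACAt
SNORA66 (chr1:92840719-92840851, plus strand, intron of RPL5): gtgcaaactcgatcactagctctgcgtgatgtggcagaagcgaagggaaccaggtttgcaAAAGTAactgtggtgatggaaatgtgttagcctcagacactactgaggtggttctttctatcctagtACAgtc
SNORA71C (chr20:38429670-38429803, minus strand, intron of SNHG17): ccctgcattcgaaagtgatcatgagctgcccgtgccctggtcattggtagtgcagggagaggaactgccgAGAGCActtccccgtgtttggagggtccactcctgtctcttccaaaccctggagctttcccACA
SNORA71D (chr20:38433865-38433998, minus strand, intron of SNHG17): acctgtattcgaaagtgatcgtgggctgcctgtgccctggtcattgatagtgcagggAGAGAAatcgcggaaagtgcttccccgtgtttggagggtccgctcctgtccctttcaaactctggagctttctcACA
SCARNA13 (chr14:95533355-95533629, minus strand, intron of SNHG10): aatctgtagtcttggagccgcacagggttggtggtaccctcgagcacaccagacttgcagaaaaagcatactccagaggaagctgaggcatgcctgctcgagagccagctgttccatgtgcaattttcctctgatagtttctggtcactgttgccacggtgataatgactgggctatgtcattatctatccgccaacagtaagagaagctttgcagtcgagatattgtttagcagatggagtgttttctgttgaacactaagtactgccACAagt

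An ACA stood within the last 7 bases of 61 of the 73 SNORA members (83.6%), of 224 of 328 SNORA genes under the count minimum (68.3%) and of 10 of 93 C/D box snoRNA genes (SNORD symbols, same minimum; 10.8%). An ANANNA match near the middle was present in 70 of the 73 SNORA members (95.9%) and in 283 of 328 SNORA genes under the minimum (86.3%). It was present in 34 of the 93 SNORD genes (36.6%). The search window grew with gene length (median 134 bases for SNORA members, 78 for SNORD), so longer genes had more places for a match. SNORA44 is among the members whose annotated end holds no ACA within the last 7 bases. A C box with a D box (TGATGA near the start and CTGA near the end, gene strand only) was found in 5 of the 11 SCARNA members, SCARNA5, SCARNA7, SCARNA10, SCARNA12 and SCARNA18, and in 0 of the 73 SNORA members. An ACA stood within the last 7 bases of 4 of the 11 SCARNA members (36.4%). Over their 134 aligned bases without gaps, SNORA71C and SNORA71D differed at 18 positions (86.6% identity) and SNORA71A differed from them at 39 and 38.

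The symbols need care. For 41 members the symbol belongs to more than 1 gene, and 10 members carry only an Rfam family name in GENCODE release 29, among them SNORA63 (ENSG00000200418) in EIF4A2, SNORA81 in SOD1, SNORA46 in AHSA1 and SCARNA18. The sources used here do not say how the authors' counting split reads between similar copies, so values of such copies are uncertain. The entry with the symbol SCARNA15 (ENSG00000252690, chr15:82752884-82757208) spans 4325 bases, is a processed transcript in that annotation and has no host, so it is not the small RNA alone. Overlap with other genes left 24.6% of SNORA3A, 24.8% of SCARNA10, 42.1% of SNORA81 in EIF4A2, 45.3% of SNORA2C, 57.8% of SCARNA9 and 58.8% of SCARNA16 to be counted.

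Total deposited counts were between 23048409 and 44888307 per library, and sense counts between 20870648 and 41932649. The members held 5288 sense counts in hypertonic replicate 1, 2469 in hypertonic replicate 2, 8811 in isotonic replicate 1 and 4174 in isotonic replicate 2. Per 1000000 sense counts this was 211, 118, 210 and 191, lowest in hypertonic replicate 2. Their mean counts ran from 10.2 to 846 with a median of 28.6, so most members rest on few reads. Of the bone-lineage markers fixed for U2OS cells, RUNX2 ran from 105 to 400 CPM (counts scaled to 1000000 on effective library sizes), and COL1A1 and SPARC were also well covered, at 42.3 CPM or more, while ALPL and SPP1 were at or under 0.864 CPM and COL1A2, SP7 and BGLAP at or under 0.196 CPM. Of the blood markers CD3E was listed at 0 in all 4 libraries, and PTPRC was at 5.91 and 4.95 CPM under hypertonic against 2.80 and 3.82 under isotonic medium; the endothelial marker PECAM1 was at or under 0.275 CPM. The 4 epithelial markers EPCAM, CDH1, KRT8 and KRT18 summed to 47.7 and 67.1 against 29.9 and 33.9 CPM, with KRT8 and KRT18 above in both hypertonic libraries, and the part of these markers in the results was not tested. DCP1A, the overexpressed gene, was at 314 and 199 CPM under hypertonic and 283 and 630 CPM under isotonic medium, and these groups overlapped.

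Most H/ACA snoRNA and scaRNA genes had lower fitted values in the hypertonic libraries, and no single member passed the test. The median log2 fold change (hypertonic over isotonic) over the 79 members that passed the expression filter was -0.70, beside 0.04 over all 21238 genes tested. Over the 1827 tested genes nested in a same-strand host, members included, it was -0.17. Over the 20 members with a mean count of at least 50, further from the count minimum, it was -0.43. The fitted change was below 0 in 64 of the 79 and above 0 in 15, where 47.6% of all tested genes and 60.3% of the nested genes were below 0. Relative to the mean of the isotonic libraries, the median member stood at -0.64 in hypertonic replicate 1 and -0.80 in hypertonic replicate 2, on the log2 CPM scale. For the 20 members with a mean count of at least 50 these medians were 0.04 and -1.35, so their lower values rest on hypertonic replicate 2. In 7 of these 20 both hypertonic libraries were below both isotonic ones (17.5% of all tested genes). Both hypertonic libraries were below both isotonic libraries for 38 of the 79 members, against 17.5% of all tested genes and 440 of the 1827 nested genes. Both were above for 1 member, SCARNA10, against 22.5% of all tested genes.

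None of the 79 members passed an adjusted p of 0.05 in edgeR's quasi-likelihood test, and neither did any other gene (0% of tested genes in either direction). At an unadjusted p under 0.05 the test gave 1 member lower, SNORA72 in RPL30, and 0 higher, where the background was 2.01% lower and 8.89% higher; DESeq2 with adjustment called 0 members, with 0.118% of genes lower and 3.32% higher. The median standard error of a member's log2 fold change was 0.81, larger than the 0.51 of their hosts, and the change exceeded its own standard error in 37 of the 79. An exact permutation test of 2 against 2 libraries cannot give a p below 0.333. Without hypertonic replicate 2, which leaves 1 hypertonic library, SNORA74A, SNORA66, SNORA71A and SCARNA15 had log2 fold changes of -2.53, -2.48, -4.76 and -1.33. SNORA44 and SNORA61 were at 2.2 and 2.03 in that fit, from which these 6 members were picked. Without hypertonic replicate 1, SNORA44 and SNORA61 were at -1.40 and -0.69. The 5 members that did not pass the filter were SNORA38B in NOL11, SNORA70 in TMX1, SNORA20 in TCP1, SNORA74C-2 in TIMM23B and SNORA58 in MRPL3; they were between 0 and 1.13 CPM in every library and have no fold change. In bulk RNA a small difference in all cells and a large one in some cells cannot be told apart, and CPM are relative to the other labelled RNA.

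The level of the members spanned a wide range on the per-length scale of the deposited RPKM values, from 1.48 to 111 with a median of 6.05. The 10 with the highest mean RPKM held 49.8% of all member counts. SNORA73B, in an intron of the snoRNA host gene SNHG3, led with a mean of 111 RPKM; it is known as a snoRNA that takes part in cleavage of the ribosomal RNA precursor and has no established modification target. SNORA73B was at 33.6 and 14.7 CPM in the hypertonic libraries against 41.7 and 26.5 CPM under isotonic medium, so the groups overlapped. Its log2 fold change was -0.50 ± 0.56 (SE, n = 2 per group; edgeR adjusted p = 0.906), from a mean of 24.2 ± 13.3 to 34.1 ± 10.7 CPM (SD, hypertonic and isotonic).

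Next in level were SNORA4 (76.2 RPKM) and SNORA63 (ENSG00000200418; 72.0 RPKM) in EIF4A2, SNORA44 in SNHG12 (56.5), SNORA81 in EIF4A2 (51.9), SNORA33 in RPS12 (39.8), SNORA24 in SNHG8 (26.8), SNORA26 in DANCR (26.4), SNORA63 (ENSG00000200320; 24.3) and SNORA62 in RPSA (21.0). SNORA33 was at 14.4 and 1.65 CPM in the hypertonic libraries, on either side of the isotonic 5.89 and 6.14. SNORA24 was at 6.08 and 0.904 against 5.57 and 5.99 CPM, so hypertonic replicate 2 alone was low. SNORA26 was at 4.01 and 1.69 against 5.66 and 5.26 CPM, and SNORA62 at 3.67 and 1.77 against 5.98 and 5.06 CPM. Both were below in each hypertonic library, with log2 fold changes of -0.94 ± 0.71 for SNORA26 and -1.02 ± 0.70 for SNORA62. All 10 of these highly labelled members were lower in hypertonic replicate 2 than in replicate 1, whereas of all 79 tested members 44 were.

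**Figure D1:**
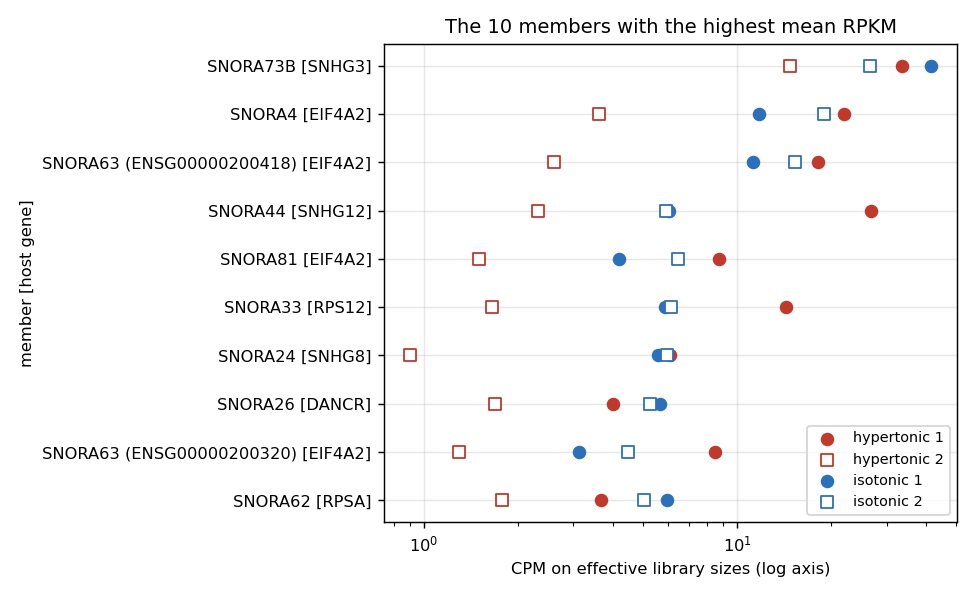
CPM on effective library sizes (log axis) of the 10 members with the highest mean RPKM, each with its host gene in brackets; red marks are hypertonic, blue marks isotonic, filled circles replicate 1 and open squares replicate 2. Hypertonic replicate 2 is the lowest of the 4 marks for each member, and for SNORA44 hypertonic replicate 1 (26.8 CPM) stands far above the isotonic 6.06 and 5.93.

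Members and their host genes mostly went in the same direction. Of the 77 members with a host and a test, 57 were lower along with their host and 6 were higher along with it; 6 were lower with a higher host and 8 higher with a lower host. Both sets were mostly lower, so many pairs would share a direction even without a link between member and host. Across these 77 genes the log2 fold changes of member and host had a Pearson correlation of 0.73 (Spearman 0.73), given as a description, since the points share libraries and 32 members share a host. The hosts as a group were lower too: 52 of 62 had a fold change below 0 (47.6% of all tested genes), with a median of -0.56. Of these, 8 were lower at an unadjusted p under 0.05 (2.01% of all tested genes), of which RPL21 had the lowest value (-2.08 ± 0.45, edgeR adjusted p = 0.192), and 0 passed after adjustment.

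**Figure D2:**
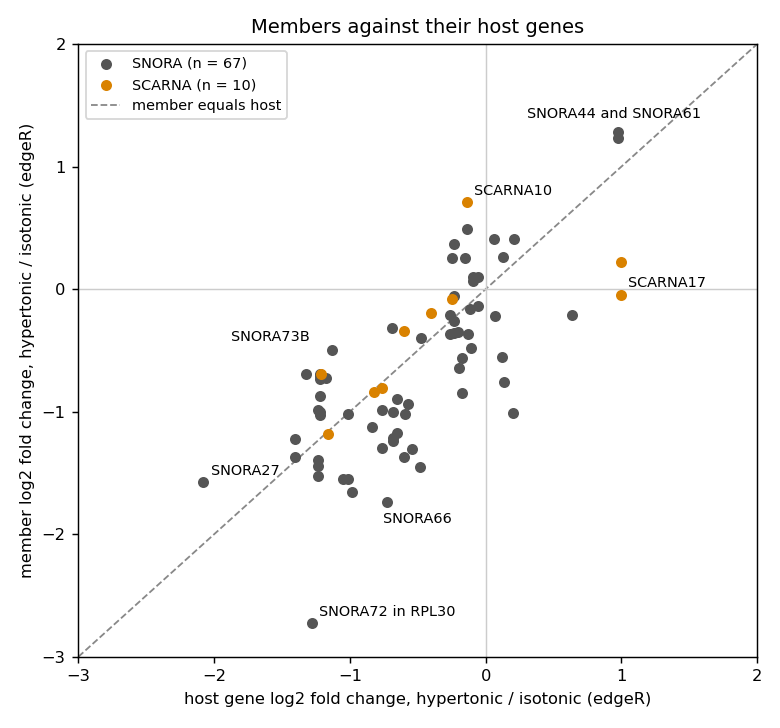
Each point is a member with a host (67 SNORA, 10 SCARNA); the horizontal axis is the host's and the vertical axis the member's log2 fold change, hypertonic over isotonic, and the dashed line marks equal change. The points follow the line, with SNORA44 and SNORA61 at the upper end and SNORA72 in RPL30 at the lower end (-2.72).

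The ratio of a member to its host was then compared between groups, as log2 of the counts with a prior count of 2, by limma over all 1827 nested genes and hosts. The median change of this ratio was -0.03 over the 77 members, beside -0.08 over all nested genes, with 42 members lower and 35 higher relative to their host. No member passed an adjusted p of 0.05 (0% of nested genes in either direction did), and 0 members were under an unadjusted p of 0.05, where 3.72% of nested genes were lower and 3.01% higher. The smallest unadjusted p of a member was 0.0892 and the smallest limma adjusted p was 0.842. The change was smaller than its standard error in 55 of the 77, ran from -1.26 to 1.33, and exceeded 1 in size in 4. These intervals are wide: the members' ratios neither passed the test nor were shown to be equal.

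The 2 hypertonic libraries differed more from each other than the isotonic ones did, and this difference also followed the host. The median absolute log2 difference between hypertonic replicates was 1.09 over the members and 0.56 for their ratio to the host; between isotonic replicates it was 0.48 and 0.34. Hypertonic replicate 1 and 2 differed in the same direction for member and host in 67 of 77 cases, with a Pearson correlation of 0.78 across genes (0.37 for the isotonic pair), again as a description of genes that share libraries and hosts.

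For comparison, the SNORD genes at the same minimum had a median log2 fold change of -0.76 over 88 tested genes. Of these, 78 were below 0, against 47.6% of all tested genes. Their median change relative to the host was -0.30 over 83 pairs, with 64 lower and 19 higher. The other nested genes (1665, mostly neither kind of snoRNA) had a median ratio change of -0.07. Whether H/ACA and C/D genes differ in this ratio was not tested.

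**Figure D3:**
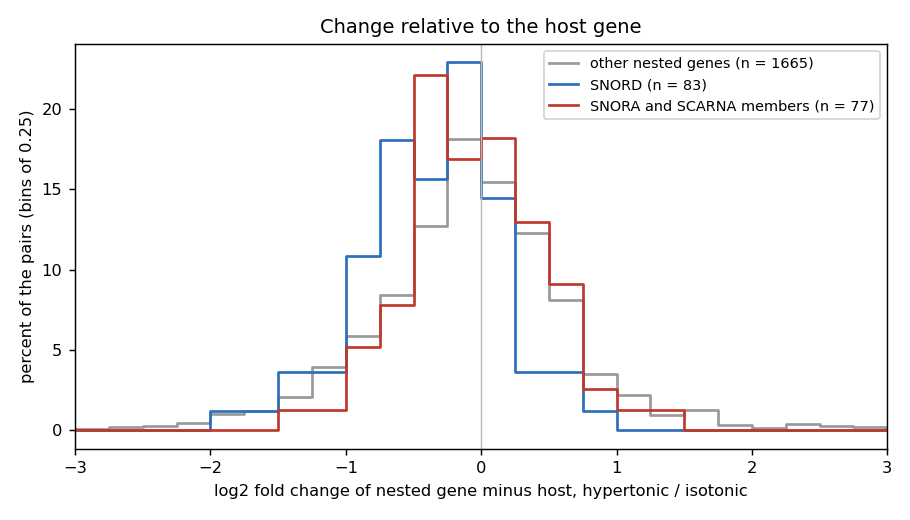
Share of pairs (percent, bins of 0.25) by the log2 fold change of the nested gene relative to its host, for 77 members (red), 83 SNORD genes (blue) and 1665 other nested genes (grey). The members centre near 0 (median -0.03) and the SNORD genes to the left of it (median -0.30).

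TAF1D, a subunit of the RNA polymerase I factor SL1, holds the largest family, with SNORA40, SNORA18, SNORA8, SNORA1, SNORA32 and SNORA25 in this order along the transcript (chr11:93730513-93735236, minus strand). All 6 were lower in both hypertonic libraries than in both isotonic ones, against 17.5% of all tested genes. Their log2 fold changes ran from -1.03 (SNORA32) to -0.70 (SNORA25). SNORA40, the most upstream and the highest at 13.3 RPKM, was at 1.77 and 1.06 CPM under hypertonic against 3.26 and 2.43 CPM under isotonic medium (-1.01 ± 0.73). The other 5 were at 6.75 to 8.67 RPKM. SNORA1 was at 1.01 and 1.14 against 1.37 and 2.17 CPM, and SNORA8 at 1.01 and 0.904 against 1.18 and 2.37 CPM. TAF1D itself was at 95.2 and 74.2 against 191 and 204 CPM, a change of -1.22 ± 0.39 (edgeR adjusted p = 0.293). Relative to the host entry all 6 members were higher in the hypertonic libraries, by 0.24 (SNORA40) to 0.58 (SNORA1) on the log2 scale, each with a limma adjusted p of at least 0.842. The deposited TAF1D entry (chr11:93735567-93741945) covers only the part upstream of the 6 members, so host and members were read from different stretches of the transcript.

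EIF4A2, a translation initiation helicase gene, holds SNORA63 (ENSG00000200418), SNORA81, SNORA63 (ENSG00000200320) and SNORA4 from 5′ to 3′. In each of them hypertonic replicate 1 was the highest of the 4 libraries and hypertonic replicate 2 the lowest. SNORA4 was at 21.9 and 3.62 CPM against 11.7 and 18.9 CPM in the isotonic libraries, and its log2 fold change was -0.26 ± 0.80. SNORA63 (ENSG00000200418) was at 18.1 and 2.59 against 11.3 and 15.3 CPM, SNORA81 at 8.74 and 1.49 against 4.19 and 6.45 CPM, and SNORA63 (ENSG00000200320) at 8.49 and 1.30 against 3.12 and 4.49 CPM. EIF4A2 had the same order, with 741 and 106 against 419 and 578 CPM (-0.24 ± 0.74). Relative to the host the log2 changes were small for SNORA63 (ENSG00000200418; -0.11 ± 0.36) and SNORA4 (0.08 ± 0.36) and largest for SNORA63 (ENSG00000200320; 0.66 ± 0.38), none past the test. The direction of these members rests on 1 library: without hypertonic replicate 2 SNORA4 was at 0.52, SNORA63 (ENSG00000200418) at 0.45 and SNORA81 at 0.72, and without hypertonic replicate 1 SNORA63 (ENSG00000200320) was at -1.58.

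SNHG17, a noncoding host, holds SNORA71D, SNORA71C, SNORA71A and SNORA71B from 5′ to 3′, at 2.78 to 5.34 RPKM. All 4 were lower in both hypertonic libraries than in both isotonic ones, against 17.5% of all tested genes. Hypertonic replicate 1 was the lower of the hypertonic libraries. SNORA71A was at 0.0422 and 0.904 CPM against 1.18 and 1.34 CPM, and SNORA71C at 0.0422 and 0.511 against 0.564 and 1.08 CPM; in each case 0.0422 CPM stands for a rounded count of 1. SNORA71D was at 0.127 and 0.550 against 0.638 and 0.722 CPM and SNORA71B at 0.338 and 0.668 against 0.687 and 2.12 CPM. The log2 fold changes were between -1.52 (SNORA71C) and -0.98 (SNORA71D), with SNHG17 at -1.24 ± 0.52 (23.2 and 61.2 against 84.3 and 115 CPM; edgeR adjusted p = 0.432). SNORA71A was at -1.39 ± 1.08 with all 4 libraries and at -4.76 (edgeR adjusted p = 0.0246) without hypertonic replicate 2, a fit in which the lone hypertonic library is assumed to vary like the isotonic ones.

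The members with the highest fold changes lay in SNHG12, another noncoding host. SNORA44 was at 26.8 and 2.32 CPM under hypertonic against 6.06 and 5.93 CPM under isotonic medium, so its hypertonic libraries lay on either side of the isotonic ones. Its log2 fold change was 1.28 ± 0.95 (edgeR adjusted p = 0.756), and the group means were 14.6 ± 17.3 and 6.0 ± 0.0870 CPM (SD, n = 2 each). SNORA61 was at 7.10 and 1.10 against 1.67 and 1.81 CPM (1.24 ± 0.91), and SNHG12 at 203 and 25.9 against 59.4 and 57.4 CPM (0.97 ± 0.76). Without hypertonic replicate 2 SNORA44 was at 2.2 (edgeR adjusted p = 0.00563) and SNORA61 at 2.03 (adjusted p = 0.0203), and without hypertonic replicate 1 they were at -1.40 and -0.69.

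**Figure D4:**
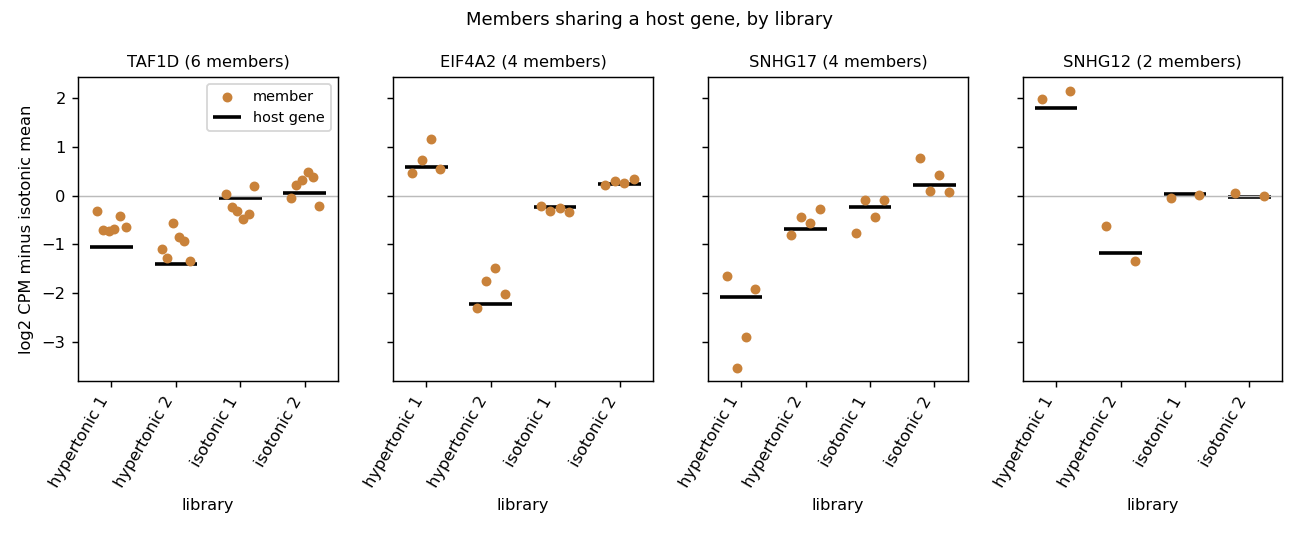
Log2 CPM minus the mean of the isotonic libraries (vertical axis) in each library for the members (orange points) and the host gene (black bar) of TAF1D, EIF4A2, SNHG17 and SNHG12. Members mostly go the way of their host in each library, though SNORA71A stands at -3.53 beside -2.08 for SNHG17 in replicate 1: both hypertonic libraries are low for TAF1D, replicate 2 is low and replicate 1 high for EIF4A2 and SNHG12, and replicate 1 is the lower one for SNHG17.

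The 16 members in ribosomal protein genes lay in the lower part of the range: 14 of 16 were below 0, against 47.6% of all tested genes. Their log2 fold changes had a median of -1.07. The median was -0.36 for 44 tested members in other protein-coding genes and -0.94 for 17 in noncoding hosts. Both hypertonic libraries were below both isotonic ones for 11 of the 16, against 17.5% of all tested genes. Relative to the host 14 of 16 were lower, with a median of -0.31. In other protein-coding hosts 20 of 44 were lower, with a median of 0.09. Of all 1827 nested genes 1018 were lower, with a median of -0.08. These classes were described, not tested. SNORA72 in RPL30 (chr8:98042086-98042217, intron) had the lowest value of all members, with 0.169 and 0.118 CPM under hypertonic against 1.06 and 0.877 CPM under isotonic medium. Its log2 fold change was -2.72 ± 0.85 (edgeR adjusted p = 0.289), with RPL30 at -1.28 ± 0.47 and the ratio to the host at -1.0 ± 0.62. Its deposited counts in the hypertonic libraries were only 4.16 and 3.29, and the symbol SNORA72 belongs to 8 genes. SNORA66 in RPL5 was at 0.465 and 1.10 against 2.31 and 2.94 CPM (-1.73 ± 0.79, edgeR adjusted p = 0.474), and RPL5 at 55.0 and 198 against 207 and 211 CPM, which left a ratio change of -0.75 ± 0.46. Without hypertonic replicate 2 SNORA66 was at -2.48 (edgeR adjusted p = 0.0388).

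SNORA70 in RPL10 was at 0.211 and 0.275 against 0.638 and 0.929 CPM (-1.65 ± 0.81) and SNORA27 in RPL21 at 0.296 and 0.668 against 1.35 and 1.55 CPM (-1.57 ± 0.80). SNORA6 in RPSA was at 1.86 and 0.943 against 4.83 and 3.35 CPM (-1.55 ± 0.74). For these 3 the groups did not overlap, and no adjusted p was below 0.505 in edgeR. SNORA21B in RPL23 was at 3.04 and 1.53 against 5.37 and 2.84 CPM, so its groups overlapped; relative to RPL23 its log2 fold change was -0.66 ± 0.54. SNORA64 in RPS2 went the other way (0.49 ± 0.85), at 2.15 and 1.38 against 0.540 and 2.01 CPM, with isotonic replicate 1 low; its ratio to RPS2 was at 0.79 ± 0.53. Without that library SNORA64 was at -0.21.

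Outside ribosomal protein genes, SNORA9B in DDX55 was at 0.211 and 0.196 against 0.515 and 0.619 CPM (-1.45 ± 0.81). SNORA53 in SLC25A3, the gene of the mitochondrial phosphate carrier, was at 3.72 and 1.77 against 2.5 and 1.60 CPM (0.41 ± 0.74), and SNORA11F, which has no host, at 1.82 and 0.668 against 0.981 and 0.774 CPM (0.49 ± 0.80); without hypertonic replicate 1 they were at -0.26 and -0.44. Further members with the lowest p for the ratio to the host were SNORA46 in AHSA1 (-0.92 ± 0.63) and SNORA81 in SOD1 (-0.87 ± 0.51) on the lower side, and SNORA73B in SNHG3 (0.73 ± 0.41) and SNORA79B in CCNB1IP1 (0.78 ± 0.51) on the higher side. In the last pair the host was further below the isotonic level than the member, with SNHG3 at -1.13 ± 0.51 and CCNB1IP1 at -1.32 ± 0.46.

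The 11 SCARNA members had a median log2 fold change of -0.34, with 9 below 0 (47.6% of all tested genes were). Their median change relative to the host was 0.19 over 10 pairs, 8 of them higher. Of all 1827 nested genes 809 were higher. SCARNA13 in SNHG10 was at 0.887 and 1.18 against 2.87 and 1.81 CPM (-1.18 ± 0.74), with SNHG10 at -1.16 ± 0.62. The entry with the symbol SCARNA15 was at 8.95 and 10.9 against 19.8 and 25.1 CPM (-1.17 ± 0.54, edgeR adjusted p = 0.481; -1.33 with an adjusted p of 0.0474 without hypertonic replicate 2). Both of these were lower in each hypertonic library. SCARNA12 in PHB2 was at 0.549 and 1.26 against 1.57 and 1.60 CPM (-0.80 ± 0.77) and SCARNA1 in PPP1R8 at 0.253 and 0.354 against 0.711 and 0.361 CPM (-0.84 ± 0.82), the second by a small margin. SCARNA16 in SNHG20 was at 0.127 and 0.354 against 0.638 and 0.103 CPM, few reads in every library, and its groups overlapped.

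SCARNA5, SCARNA7 and SCARNA9, in introns of ATG16L1, KPNA4 and CEP295, had values close to those of the isotonic libraries. SCARNA7 was at 2.79 and 2.2 against 3.92 and 2.32 CPM (-0.34 ± 0.70), SCARNA5 at 0.802 and 0.864 against 1.08 and 0.826 CPM (-0.20 ± 0.74) and SCARNA9 at 1.10 and 0.943 against 0.932 and 1.24 CPM (-0.08 ± 0.73). SCARNA10 in NCAPD2, of which 82 bases were counted, was at 1.10 and 0.982 against 0.834 and 0.413 CPM (0.71 ± 0.77). Relative to their hosts SCARNA10 and SCARNA16 had the highest values of all members, 1.02 ± 0.62 and 1.33 ± 0.98, neither past the limma test. SCARNA17 and SCARNA18 lie side by side in SNHG22, starting 110 and 338 bases after the start of that host. SCARNA17 was at 0.253 and 1.02 against 0.466 and 0.877 CPM (-0.05 ± 0.90) and SCARNA18 at 0.169 and 0.707 against 0.172 and 0.619 CPM (0.22 ± 1.00), with replicate 1 the lower in both groups. SNHG22 was at 12.8 and 15.8 against 5.98 and 8.36 CPM (1.00 ± 0.58), so the ratio of SCARNA17 to its host had a log2 fold change of -1.26 ± 0.64, with the smallest unadjusted limma p of the members (0.0892, adjusted 0.842).

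The per-length level of a member relative to its host, from the mean deposited RPKM over the 4 libraries, had a median of 1.04 over 82 members. It lay between 0.5 and 2 for 53, under 0.5 for 12 and at or above 2 for 17. SCARNA18 and SCARNA17 stood 17.9 and 16.0 times above SNHG22, a host of 0.236 RPKM whose 2 members lie at its start. SNORA48 (3.81 times its annotated host AC016876.2), SNORA44 (3.53 times SNHG12) and SNORA26 (3.42 times DANCR) followed. The deposited AC016876.2 entry (chr17:7577707-7579809, 872 bases counted) does not reach SNORA48, which starts at base 7574713. The value of SNORA48 therefore compares different stretches and does not show its level within a host transcript. SNORA75 in the nucleolin gene NCL was lowest, at 5.99 RPKM beside 45.8 for its host (0.131). All 10 SCARNA members with a host had a ratio of at least 1 (median 2.2), as did 35 of 72 SNORA members (median 0.970); the 89 SNORD genes with a host had a median of 1.26. Host values average exons and introns over the whole counted gene.

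The genes of proteins that build and use these RNAs were read from the same libraries. None of the 18 tested genes of the 20 in the H/ACA pathway list passed in edgeR, as was so for all tested genes (0%). At an unadjusted p under 0.05 there were 0 of the 18, where 2.01% of all tested genes were lower and 8.89% higher. Of the 18, 13 were below 0 and 5 above, where 47.6% of all tested genes were below 0. Their median log2 fold change was -0.27, beside 0.04 over all genes. Among the 4 core proteins, GAR1 was at 18.1 and 43.6 against 58.2 and 67.3 CPM (-1.03 ± 0.52, edgeR adjusted p = 0.540) and NHP2 at 1.94 and 5.66 against 5.86 and 6.97 CPM (-0.75 ± 0.73). NOP10 was at 1.18 and 1.45 against 1.72 and 1.81 CPM (-0.42 ± 0.71). DKC1, the pseudouridine synthase, was at 16.4 and 112 against 64.3 and 71.4 CPM (-0.08 ± 0.73), with its hypertonic libraries on either side of the isotonic ones.

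Of the assembly factors, NAF1 was lower in both hypertonic libraries (64.3 and 49.0 against 84.4 and 98.4 CPM; -0.69 ± 0.40), while SHQ1 (-0.27), RUVBL1 (0.22), RUVBL2 (0.19) and NOLC1 (0.39) had overlapping groups. Of the Cajal body genes, COIL, which encodes coilin, was at 12.9 and 41.6 against 62.6 and 44.8 CPM (-0.98 ± 0.60) and TGS1, the cap hypermethylase, at 83.3 and 119 against 153 and 141 CPM (-0.53 ± 0.39). SMN1, whose reads are shared with the near-identical SMN2, was at -0.92 ± 0.75, and WRAP53, which brings scaRNAs to Cajal bodies, at 0.47 ± 0.67. TERC, the telomerase RNA with an H/ACA domain, was listed at 0 in all 4 libraries, and TERT was at 0.786 CPM or less and not tested.

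Of the genes that release introns or trim RNA 3′ ends, TOE1 was at 2.53 and 12.8 against 15.1 and 16.3 CPM (-1.03 ± 0.77). The debranching enzyme gene DBR1 was at 30.9 and 14.3 against 25.8 and 15.3 CPM (0.14 ± 0.58), and the 3′ exonuclease gene PARN (-0.15 ± 0.43), the poly(A) polymerase gene TENT4B (-0.27 ± 0.39) and the exosome gene EXOSC10 (-0.24 ± 0.47) also overlapped between groups. Of the C/D core genes NOP58 was lower in both hypertonic libraries (149 and 255 against 272 and 329 CPM; -0.58 ± 0.42), and FBL (-0.36), SNU13 (-0.61) and NOP56 (0.14), itself the host of SNORA51, were not separated. In DKC1, GAR1, NHP2, COIL and TOE1 hypertonic replicate 1 was the lower of the hypertonic libraries; leaving out replicate 2 led edgeR to call 6 of the list lower, where 10.3% of all genes were, and gave DKC1 -2.05, GAR1 -1.80 and COIL -2.06, with edgeR adjusted p of 0.00378, 0.00692 and 0.00661, and leaving out replicate 1 gave DKC1 0.69.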

How the data were processed

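The authors deposited 1 table per library with an expected count of reads and an RPKM value per gene and strand; the tables have no header, and both units were read from the values. The deposited RPKM is the count divided by the counted length and by 1 constant per library. Per the submitters' processing notes, with no roles given, bedtools 2.16.2, STAR 2.5.3a, Bowtie2 2.3.3 and CASAVA 1.8.2 were used, on GRCh38 (hg38); the counting rule and annotation release are not given in the sources used here. Entries for regions shared by overlapping genes (3.11 to 3.48% of counts) were left out, and 259 genes without a match in GENCODE release 29 were not used. Coordinates are those deposited, counted from 1.

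Members, lists and rules were chosen with earlier results of these data known. Members are the sense entries with a SNORA or SCARNA symbol and a mean count of at least 10; the host is the smallest enclosing same-strand gene that is not a small RNA, by GENCODE spans. Rounded counts of all 57428 sense genes went into edgeR 4.0.16 under R 4.3.3 (TMM factors 0.947, 1.22, 0.974 and 0.887, default filter, quasi-likelihood test, Benjamini-Hochberg adjustment over 21238 genes at 0.05). A fold change's standard error (log2) is its size over the square root of F, and CPM use effective library sizes. The log2 ratio to the host, with a prior count of 2, was tested with limma 3.58.1 over 1827 nested genes whose host had a mean count of at least 10. DESeq2 1.42.0 and other scalings, filters, prior counts and left-out libraries were alternatives.

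The text names every scaRNA, the 10 members highest in RPKM, the 8 with the smallest edgeR p in each direction, the 6 with the smallest limma p of the ratio in each direction, all members of hosts with at least 3, their hosts and the pathway list, except 1 member and its host that are not reported here; others named beyond this rule (SNORA48, SNORA74A, SNORA75 and those not tested) were chosen after their values were seen. Counts are of reads, not of molecules. Figures were drawn with matplotlib 3.10.9 under Python 3.11.15, with pandas 2.3.3.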

Additional observations from a re-analysis of the deposited data

How the results depend on the processing

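No member passed the threshold, over all genes or relative to its host, under any scaling, filter, prior count, host choice, DESeq2, limma-voom or the replicate block; the exception was leaving out a library, with 0 to 6 members called over all genes and 0 relative to the host. The median log2 fold change of the members stayed below 0 throughout: it was -0.47 with total counts, -0.52 with the upper quartile, -0.43 for members with a mean count of at least 50, and from -1.03 to -0.65 with a library left out. The value for members with a mean count of at least 50 rests on hypertonic replicate 2, as their median stood at 0.04 in hypertonic replicate 1. Total counts and the upper quartile moved the median of all genes from 0.04 to 0.26 and 0.23, and the members stood -0.73 and -0.75 from it, beside -0.74 with TMM. The median relative to the host ran from -0.14 to 0.15 with a library left out. The median of the pathway list was -0.27, ran from -0.79 to -0.25 with a library left out, and was -0.081 with total counts and -0.072 with the upper quartile. The labels do not say that replicate numbers pair the libraries, and the differences between replicates correlated by 0.02 between groups over 21238 genes. With the replicate block the member medians were -0.74 and, relative to the host, -0.03, and edgeR called 4 genes lower and 380 higher, none a member. Subtracting nested counts from the host repeats a correction already in the deposited host lengths; this and the other prior counts moved the median relative to the host by less than the spread between hypertonic libraries (SD 0.21).

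Single values turned sign in a few settings; none was past the threshold in edgeR, and the cause was not tested. With total counts SCARNA5 was at 0.016, SCARNA9 at 0.13, SNORA81 in EIF4A2 at 0.047, SCARNA17 at 0.28, DKC1 at 0.28, PARN at 0.0053 and EXOSC10 at 0.039; with the upper quartile SCARNA9 was at 0.11, SNORA81 in EIF4A2 at 0.17, SCARNA17 at 0.12, DKC1 at 0.077 and PARN at 0.052. With limma-voom and with the replicate block SNORA63 (ENSG00000200320) was at -0.16 and -0.13, SNORA33 at -0.31 and -0.27, RUVBL2 at -0.088 and -0.12 and NOP56 at -0.039 and -0.066.

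With a library left out the sign depended on which one for 16 of the members followed one by one: SCARNA9 (-0.31 to 0.091), SNORA63 (ENSG00000200418; -2.39 to 0.45), SNORA81 in EIF4A2 (-1.86 to 0.72), SNORA63 (ENSG00000200320; -1.58 to 1.16), SNORA4 (-2.11 to 0.52), SCARNA7 (-0.70 to 0.065), SNORA33 (-1.90 to 1.25), SNORA64 (-0.21 to 1.66), SNORA53 (-0.26 to 0.84), SNORA61 (-0.69 to 2.03), SNORA44 (-1.40 to 2.2), SCARNA17 (-1.36 to 0.61), SCARNA18 (-1.13 to 1.30), SNORA24 (-2.70 to 0.072), SNORA81 in SOD1 (-1.08 to 0.49) and SNORA11F (-0.44 to 1.03). The same held for DKC1 (-2.05 to 0.69), RUVBL1 (-0.019 to 0.43), RUVBL2 (-1.14 to 0.84), NOLC1 (-0.75 to 1.05), WRAP53 (-0.0057 to 1.07), DBR1 (-0.56 to 0.58), PARN (-0.72 to 0.23), EXOSC10 (-0.85 to 0.15), FBL (-1.75 to 0.29), NOP56 (-0.91 to 0.70) and SNU13 (-2.04 to 0.063). In such fits the lone library is assumed to vary like the other group. Depth limits the members with a rounded count of a few reads in a library.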

Other observations

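Reads on the strand opposite to the members were not used above. Of the members, 76 had an entry for that strand, and it held 133 counts (5.64 CPM) in hypertonic replicate 1, 37.9 (1.49 CPM) in hypertonic replicate 2, 48.2 (1.18 CPM) in isotonic replicate 1 and 32.9 (1.70 CPM) in isotonic replicate 2. Hypertonic replicate 1 stood above the other libraries and hypertonic replicate 2 lay between the isotonic ones. In hypertonic replicate 1 the most antisense counts were over SNORA8 (26.5), SNORA80D (21.5) and SNORA25 in TAF1D (16.7), and 20 members had any, beside 15, 13 and 9 in the other libraries.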
